A study of Mus musculus with 6 samples.

Results

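The genes described here are the acid hydrolases of the lysosome, a few of its membrane proteins and transcriptional regulators, and the vacuolar ATPase, the proton pump that acidifies it. They were read from 1 comparison of mouse HoxB8 neutrophil progenitors, immature myeloid cells held as progenitors by the transcription factor Hoxb8. Members were taken by gene name, from a rule drawn up with earlier results of these data known: every probe set whose platform symbol begins with Atp6v0 or Atp6v1 or is Atp6ap1 or Atp6ap2, and 31 listed symbols. The rule found 54 probe sets for 54 genes among 22206 probe sets, 24 for the pump and 30 of the 31 listed genes. The glycosidase Glb1 and the pump gene Atp6v0c were not analysed here.

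One group of 3 arrays came from progenitors that expressed wild-type C/EBPα (WT-C/EBPα, here WT), and the other group of 3 from progenitors that expressed the K313 form known from acute myeloid leukaemia (K313-C/EBPα, here K313). Both had spent 1 day in differentiation medium with stem cell factor supernatant, and all 6 share the HoxB8 background. Total RNA was hybridised to Clariom S arrays. Nothing in the labels tells if replicates are separate cultures or clones. The p-values therefore reflect only how these 6 samples scatter, and that scatter may be technical.

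Lysosomes break down material delivered by endocytosis, phagocytosis and autophagy. Their hydrolases are made as precursors, most of them tagged with mannose 6-phosphate, and work at the low pH that the proton pump maintains with energy from ATP. In neutrophil precursors the primary granules also carry several lysosomal enzymes, beside the neutrophil serine proteases. Many lysosomal genes are known targets of TFEB and TFE3, basic helix-loop-helix factors that bind the E-box letters CACGTG.

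Across the series, the 6 arrays correlated at 0.994 to 0.996 within a group and at 0.983 to 0.989 between groups, and WT replicate 3 lay nearest to K313 (0.987 to 0.989). The neutrophil lineage markers were present in part: myeloperoxidase (Mpo) read 18.41 in WT and 18.42 in K313 on the log2 scale, while lactoferrin (Ltf) and cathelicidin (Camp), proteins of later granules, read 3.22 to 3.38. Levels of 5 or less are called the low end here. That is about the array medians (5.01 to 5.13), and without detection calls such a level may not be above background. The Cebpa transcript differed by -0.51 ± 0.21 (K313 minus WT, log2; SE, n = 3 per group; limma adjusted p = 0.212), and whether its probe set sees the introduced forms is not stated. The groups also differed in Hoxb8 (-4.64 ± 0.25, adjusted p = 1.15e-06) and in Y-linked genes. Eif2s3y read 3.11, 2.93 and 7.03 in WT and 12.09 to 12.37 in K313. Uty read 3.72, 3.78 and 6.81 in WT and 11.67 to 12.37 in K313. In both, the highest WT array was replicate 3, the WT array nearest to K313. What these differences and the C/EBPα form each bring to the lysosomal values cannot be told apart.

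The upstream sequences of the members were set beside these facts because TFEB and TFE3 act through them. RefSeq promoters (GRCm38.p6, 250 bases before to 50 after a gene's start) were found for 44 of the 54 members, 50 promoters in all. The letters CACGTG, which read the same on both strands, stood in 12 of the 50 (24%), against 7.15% of all 32851 promoters. All 12 also held the longer form TCACGTG on at least 1 strand, which 3.77% of all promoters held. The first 3 sequences below show the members of this kind that make a membrane glycoprotein, a calcium channel and a pump subunit, with CACGTG in capitals. Lamp1 held it 4 times within 61 bases before its start (chr8:13158911-13159210, plus strand), Mcoln1 2 times (chr8:3500269-3500568, plus strand) and Atp6v0b 2 times (chr4:117887280-117887579, minus strand). The last 2 belong to hydrolases that rose in K313, Tpp1 (chr7:105752186-105752485, minus strand) and Neu1 (chr17:34931003-34931302, plus strand). They hold no CACGTG, and their capitals mark TCACATG on either strand, a variant searched for after these sequences had been read, which stood in 3.99% of all promoters and in 5 of the 50.
Lamp1: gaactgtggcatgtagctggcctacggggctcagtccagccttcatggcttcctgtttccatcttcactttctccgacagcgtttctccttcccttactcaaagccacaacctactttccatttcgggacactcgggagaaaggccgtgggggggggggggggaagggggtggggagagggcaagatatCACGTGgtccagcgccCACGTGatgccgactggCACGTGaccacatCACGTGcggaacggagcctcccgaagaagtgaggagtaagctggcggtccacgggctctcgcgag
Mcoln1: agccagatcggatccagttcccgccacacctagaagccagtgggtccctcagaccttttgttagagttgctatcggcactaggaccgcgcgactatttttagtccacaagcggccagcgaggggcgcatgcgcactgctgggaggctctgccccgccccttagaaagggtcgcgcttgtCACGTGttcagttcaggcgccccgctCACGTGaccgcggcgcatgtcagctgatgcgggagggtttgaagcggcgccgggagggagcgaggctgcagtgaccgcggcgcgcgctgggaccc
Atp6v0b: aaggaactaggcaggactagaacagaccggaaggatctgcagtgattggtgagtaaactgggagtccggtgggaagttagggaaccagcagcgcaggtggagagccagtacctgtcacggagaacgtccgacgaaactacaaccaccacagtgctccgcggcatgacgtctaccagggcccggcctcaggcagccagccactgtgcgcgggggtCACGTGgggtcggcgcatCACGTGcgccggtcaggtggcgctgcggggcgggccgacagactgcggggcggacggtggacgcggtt
Tpp1: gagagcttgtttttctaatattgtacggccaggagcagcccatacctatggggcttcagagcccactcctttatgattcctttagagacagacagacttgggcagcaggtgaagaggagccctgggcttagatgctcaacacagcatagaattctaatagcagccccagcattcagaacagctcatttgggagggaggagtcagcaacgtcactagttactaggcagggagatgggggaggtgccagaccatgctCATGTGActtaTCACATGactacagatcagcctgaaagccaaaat
Neu1: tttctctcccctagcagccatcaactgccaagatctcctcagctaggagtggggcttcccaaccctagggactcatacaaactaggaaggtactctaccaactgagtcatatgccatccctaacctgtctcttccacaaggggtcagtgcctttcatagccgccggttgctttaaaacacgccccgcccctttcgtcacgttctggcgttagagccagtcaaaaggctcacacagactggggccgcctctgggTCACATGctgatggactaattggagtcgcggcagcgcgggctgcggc

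Among the lysosomal genes, 5 hydrolases or hydrolase cofactors rose in K313 and 1 hydrolase fell, while no pump gene passed the threshold. The 6 were Tpp1, Hexa, Arsb, Neu1 and Psap, higher by 1.73-fold to 3.11-fold, and Lipa, lower by 1.61-fold. That is 11.1% of the 54 members, against 7.75% of all probe sets that passed in either direction (limma, Benjamini-Hochberg adjusted p under 0.05 over all 22206 probe sets). At an unadjusted p under 0.05, 5 members were higher and 6 lower, against 8.79% and 9.04% of all probe sets (17.8% in either direction). By direction after adjustment, 9.26% of members rose against 3.77% of all probe sets, and 1.85% fell against 3.97%. Leaving out the probe sets at the low end in both groups, 13.6% of 44 members passed against 13.9% of all 11573 such probe sets. The share of members that changed in either direction was thus near the background. By direction, 11.4% of these members rose against 6.59% of such probe sets, and 2.27% fell against 7.3%. These are 5 genes and 1 gene, and no set test was run. The median difference over the 54 members was -0.067 on the log2 scale, against 0.017 over all probe sets. The 3 K313 values lay clear of the 3 WT values in 14 members (25.9%), 7 above and 7 below, against 21.9% of all probe sets. Without WT replicate 3 the same 5 genes rose and Lipa missed the threshold (adjusted p = 0.104). With quantile normalization 5 members rose and 0 fell, and with a common median of the arrays the same 5 rose and 2 fell, Lipa and Man2b1.

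**Figure D1:**
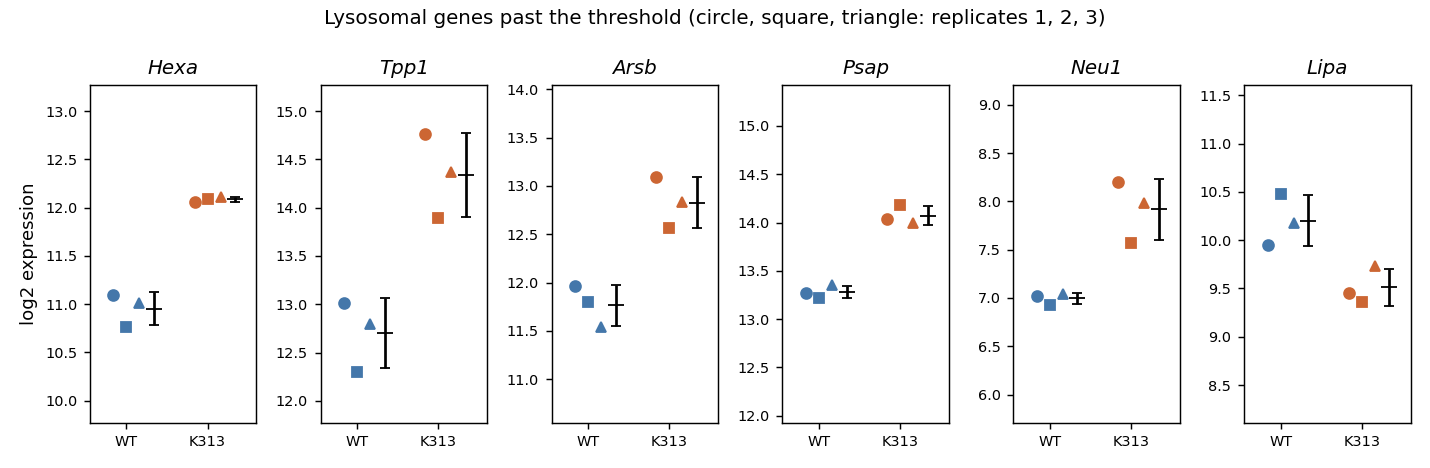
Log2 expression of the 6 lysosomal genes that passed the threshold, 1 panel a gene, with 1 symbol per array (circle, square and triangle for replicates 1, 2 and 3) and the mean ± SD of each group in black; every panel spans the same number of log2 units. In each panel the K313 arrays lie wholly above the WT arrays, except for Lipa, where they lie wholly below.

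Of 10 glycosidases, the enzymes that trim sugars from glycoproteins, glycolipids and glycosaminoglycans, 2 rose and 0 fell (20%, against 7.75% of all probe sets). All 10 lay above the low end. Of all probe sets not at the low end in both groups, 13.9% passed. At an unadjusted p under 0.05, 2 glycosidases rose and 1 fell, against 17.8% of all probe sets in either direction. Hexa, the alpha subunit of beta-hexosaminidase, which removes the terminal N-acetylgalactosamine of ganglioside GM2, read 11.09, 10.76 and 11.01 in WT and 12.06, 12.09 and 12.11 in K313. The K313 arrays were nearly alike and all above WT, a difference of 1.13 ± 0.16 (SE, n = 3 per group), or 2.19-fold (adjusted p = 0.000708). Neu1, the lysosomal sialidase, read 7.02, 6.93 and 7.04 in WT and 8.20, 7.57 and 7.98 in K313, a difference of 0.92 ± 0.18 (adjusted p = 0.0089). Its WT arrays lay within 0.11 of each other, and the lowest K313 array was above all of them. Man2b1, the lysosomal alpha-mannosidase, went the other way without passing: it read 13.23, 13.90 and 13.58 against 12.97, 13.03 and 12.91, a difference of -0.60 ± 0.19 (adjusted p = 0.0878). The groups did not overlap, and the gene passed without WT replicate 1 (-0.77, adjusted p = 0.0295).

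The other 7 glycosidases differed by -0.15 to 0.34. Naglu, which removes N-acetylglucosamine from heparan sulfate, differed by 0.34 ± 0.20 and beta-mannosidase, Manba, by 0.21 ± 0.21. For both, WT replicate 1 was the lowest of the 6 arrays (9.77 for Naglu and 9.07 for Manba), and WT replicate 3 (10.58 and 9.84) lay within or above the K313 arrays. Alpha-L-iduronidase, Idua, differed by 0.20 ± 0.23 and alpha-fucosidase, Fuca1, by -0.053 ± 0.16. Acid alpha-glucosidase, Gaa, which degrades glycogen, differed by -0.15 ± 0.17, beta-glucuronidase, Gusb, by -0.093 ± 0.19 and alpha-galactosidase A, Gla, by -0.080 ± 0.22. Gla was among the members with the widest spread in WT, with 14.18 in replicate 1 and 13.28 in replicate 2.

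Of the 5 sulfatases and the acetyltransferase Hgsnat, which remove or modify groups on glycosaminoglycans and sulfatides, 1 rose and 0 fell. That is 16.7%. Of all probe sets 7.75% passed in either direction, and 13.9% of those not at the low end in both groups. The counts were the same at an unadjusted p under 0.05, against 17.8% of all probe sets. Arsb, the N-acetylgalactosamine 4-sulfatase that acts on dermatan and chondroitin sulfate, read 11.96, 11.80 and 11.54 in WT and 13.09, 12.56 and 12.83 in K313. All K313 arrays were above all WT arrays, by 1.06 ± 0.19 on average, or 2.08-fold (adjusted p = 0.0040). Galns, the sulfatase of keratan sulfate, read 10.13, 10.12 and 10.02 against 10.16, 10.31 and 10.52; the groups just failed to overlap, and the difference of 0.24 ± 0.16 did not pass (adjusted p = 0.507). Arylsulfatase A, Arsa, differed by -0.10 ± 0.27 and had the largest spread of any member in WT (SD 0.61), from 7.58 in replicate 1 to 6.47 in replicate 2. Hgsnat differed by -0.18 ± 0.19. Ids and Sgsh, sulfatases of heparan sulfate breakdown, lay at the low end in both groups. Ids read 3.81, 4.47 and 4.05 in WT and 3.85, 3.36 and 3.95 in K313, with overlapping groups, and Sgsh had means of 4.38 and 4.41.

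The lipid hydrolases and their helper split. Psap, the precursor of the saposins that present sphingolipids to their hydrolases, read 13.27, 13.22 and 13.35 in WT and 14.04, 14.18 and 13.99 in K313. Both groups were tight and did not overlap, and Psap rose by 0.79 ± 0.15, or 1.73-fold (adjusted p = 0.00642). Lipa, the acid lipase that frees cholesterol and fatty acids from lipoprotein lipids, read 9.95, 10.48 and 10.18 in WT and 9.45, 9.36 and 9.73 in K313. It fell by 0.69 ± 0.18 on the log2 scale (adjusted p = 0.0443), with every K313 array under every WT array. The call is marginal: it was lost without any 1 of 5 arrays (WT replicate 2 or 3, or any K313 replicate; adjusted p = 0.0514 to 0.174) and with quantile normalization (0.072). Smpd1, acid sphingomyelinase, differed by -0.44 ± 0.19 (adjusted p = 0.241) with overlapping groups. Acid ceramidase, Asah1, differed by -0.17 ± 0.16 and the palmitoyl-protein thioesterase Ppt1 by 0.090 ± 0.23, with WT replicate 2 of Ppt1 (10.10) under the other 5 arrays.

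Tpp1, a tripeptidyl peptidase that clips tripeptides from the amino ends of proteins, showed the largest difference of all members. It read 13.01, 12.30 and 12.80 in WT and 14.76, 13.89 and 14.37 in K313. The groups were 0.88 apart at their nearest arrays, and the difference was 1.64 ± 0.25, or 3.11-fold (95% interval before adjustment 2.14 to 4.53; adjusted p = 0.00133). Replicate 2 was the lowest array in either group. Aga, which cleaves the bond between sugar chains and asparagine, read 9.38, 9.36 and 9.37 against 9.22, 9.17 and 8.94. Its groups did not overlap, yet the difference of -0.26 ± 0.15 did not pass (adjusted p = 0.440). Lgmn, the asparaginyl endopeptidase, was at the low end in both groups (3.59 and 3.48).

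Membrane proteins of the lysosome did not pass, 0 of 4 (also 0 at an unadjusted p under 0.05, against 17.8% of all probe sets). Lamp1, a major glycoprotein of the lysosomal membrane, read 13.34, 13.46 and 13.33 in WT and 12.86, 13.12 and 13.20 in K313. All K313 arrays were lower, by 0.13 at the nearest pair, and the difference was -0.32 ± 0.16 (adjusted p = 0.341). Lamp2, its relative that also serves chaperone-mediated autophagy, read 15.88, 15.90 and 15.86 against 16.03, 15.62 and 15.64, with the K313 arrays on both sides of WT. Scarb2, the receptor that carries glucocerebrosidase to the lysosome, differed by 0.023 ± 0.19 and the calcium channel Mcoln1 by 0.050 ± 0.15.

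The transcription factors of the set did not pass either (0 of 2, also 0 at an unadjusted p under 0.05, against 17.8% of all probe sets). Tfeb read 6.16, 6.51 and 6.13 in WT and 6.36, 6.37 and 5.94 in K313, a difference of -0.043 ± 0.18 (95% interval -0.45 to 0.36). Tfe3 read 9.41, 8.88 and 9.12 against 8.80, 8.87 and 8.96, a difference of -0.26 ± 0.17 (-0.64 to 0.12). Their groups overlapped. These factors are controlled largely by where in the cell they reside, which transcript levels do not show. Of the 12 members with CACGTG in the promoter, 0 passed the threshold, against 7.75% of all probe sets. The count was also 0 at an unadjusted p under 0.05, against 17.8%, and nothing is read from counts of so few genes. Their median difference was -0.053, against -0.048 over the 32 members with a promoter without it. The promoters of the 6 genes that passed held no CACGTG, and those of Tpp1 and Neu1 held TCACATG, 5 and 16 bases after the start in Tpp1 and 3 bases after it in Neu1. The same letters stood in the promoters of Gla, Lgmn and Ppt1, which did not pass (-0.080, -0.11 and 0.090). The C/EBP-type letters TTGCNNAA, searched on both strands and added after the values were known, stood in 10% of the members' promoters and in 10.8% of all promoters. Of the 6 genes that passed, 0 held them in this window.

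**Figure D2:**
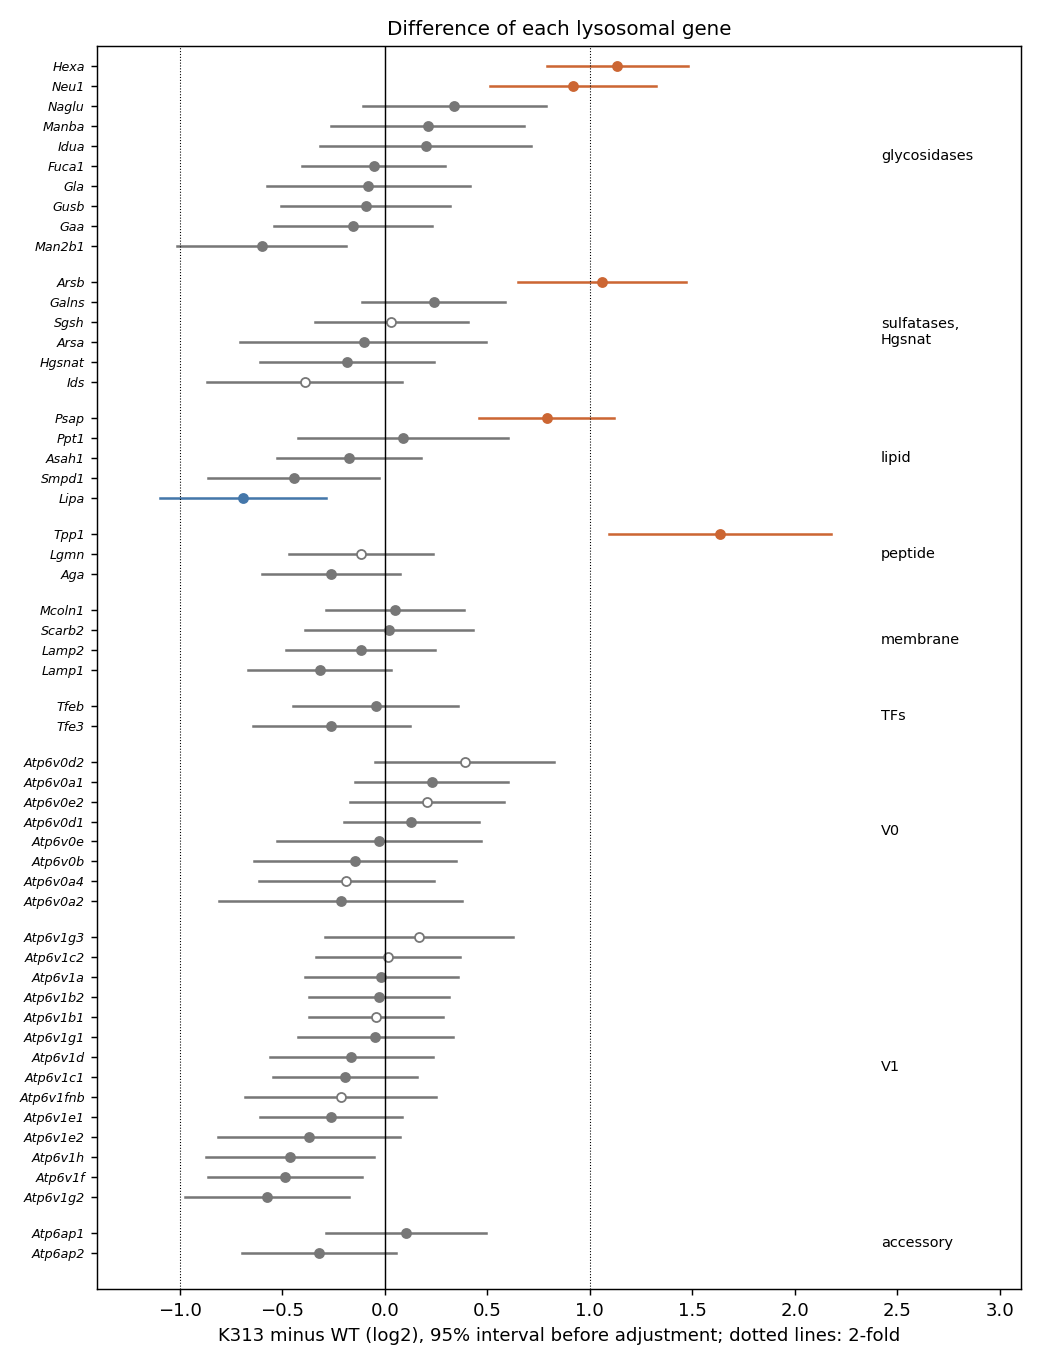
K313 minus WT on the log2 scale for each of the 54 genes, grouped by role, with 95% intervals before adjustment; orange passed the threshold higher, blue lower, grey did not pass, and open circles lie at the low end in both groups. The pump genes of the V0 and V1 sectors and the accessory subunits have intervals wholly inside the dotted 2-fold lines.

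The proton pump has a membrane sector, V0, through which protons pass, and a cytosolic sector, V1, that hydrolyses ATP. Of its 24 probe sets, 0 passed with limma, against 7.75% of all probe sets. Of the 17 not at the low end in both groups 0 passed, against 13.9% of all such probe sets. At an unadjusted p under 0.05, 0 of the 24 were higher and 3 lower, beside 8.79% higher and 9.04% lower of all probe sets. With quantile normalization, array weights or ordinary variance 0 of the 24 passed as well, and without K313 replicate 1 the V1 gene Atp6v1g2 passed (-0.74, adjusted p = 0.0362). The 24 are taken by name. They leave out the a3 subunit Tcirg1, which passed with quantile normalization, and take in Atp6v1fnb. Differences ran from -0.57 to 0.39 with a median of -0.095. All 24 intervals (95%, before adjustment) lay within a 2-fold change in either direction, 11 of them within 1.5-fold. Of the 24 genes, 7 lay at the low end in both groups. Folds are compressed there, so the intervals of these 7 say little.

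In the V0 sector the 8 differences of genes taken by name, without Tcirg1, split evenly around 0. Atp6v0a1, 1 of the large membrane subunits that form the proton path, read 12.71, 13.16 and 13.13 in WT and 13.19, 13.22 and 13.28 in K313. The K313 arrays were just above WT, and the difference of 0.23 ± 0.17 did not pass (adjusted p = 0.567). Atp6v0d1, the widely expressed form of the subunit that links the sectors, differed by 0.13 ± 0.15. Its osteoclast and macrophage form Atp6v0d2 stayed at the low end, with 2.93, 2.74 and 3.24 in WT and 3.32, 3.67 and 3.09 in K313. Atp6v0a2 differed by -0.21 ± 0.27 with a wide spread in WT (8.63, 9.54 and 9.71), and the ring subunit Atp6v0b by -0.14 ± 0.22 with 1 low K313 array (8.89 in replicate 3). Atp6v0e differed by -0.027 ± 0.23. The forms Atp6v0a4, known from kidney, and Atp6v0e2 were at the low end in both groups.

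In the V1 sector 12 of 14 differences were under 0 (Atp6v1fnb among them), with a median of -0.18. Over all probe sets, 10613 of 22206 differences were under 0. Of the 14 V1 genes, 4 lay at the low end in both groups. When arrays were left out, 10 to 13 of 14 were under 0. The median was -0.084 without WT replicate 1 and -0.10 without WT replicate 3. With quantile normalization the V1 median was -0.15 and with a common median of the arrays -0.26. The V0 median changed sign with the latter, from 0.052 to -0.025, and with low probe sets left out (-0.085 over 6 genes). The common median lowered every difference by the same amount, and the median over all probe sets went from 0.017 to -0.060. Atp6v1g2, a stator subunit known from neurons, read 8.62, 8.55 and 8.38 in WT and 8.28, 7.78 and 7.77 in K313, a difference of -0.57 ± 0.18 (adjusted p = 0.0939). Atp6v1f, a rotor subunit, read 11.07, 11.15 and 10.78 against 10.37, 10.46 and 10.71, a difference of -0.49 ± 0.17 (adjusted p = 0.137). Atp6v1h, a regulatory subunit, differed by -0.46 ± 0.19 (adjusted p = 0.212). In these 3 the groups did not overlap, yet none passed. They are 21.4% of the 14, against 21.9% of all probe sets in either direction and 10.9% with K313 below.

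The catalytic core of V1 was close between groups. The ATP-hydrolysing subunit Atp6v1a differed by -0.017 ± 0.17 and its partner Atp6v1b2 by -0.027 ± 0.15, with intervals of -0.39 to 0.36 and -0.37 to 0.31. The stator subunit Atp6v1g1 differed by -0.047 ± 0.17, the rotor subunit Atp6v1d by -0.16 ± 0.18, Atp6v1c1 by -0.19 ± 0.16 and Atp6v1e1 by -0.26 ± 0.16. Atp6v1e2, known from testis, differed by -0.37 ± 0.20. The tissue-restricted forms Atp6v1b1, Atp6v1c2 and Atp6v1g3 lay at the low end in both groups, as did Atp6v1fnb, which the rule takes in by its name but which is named as a neighbour of Atp6v1f. Of the accessory proteins, Atp6ap1 read 12.87, 12.33 and 12.74 against 12.70, 12.71 and 12.84, and Atp6ap2, also known as the prorenin receptor, read 14.15, 14.10 and 14.24 against 14.10, 13.84 and 13.59. Both groups overlapped in each, with differences of 0.10 ± 0.18 and -0.32 ± 0.17.

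**Figure D3:**
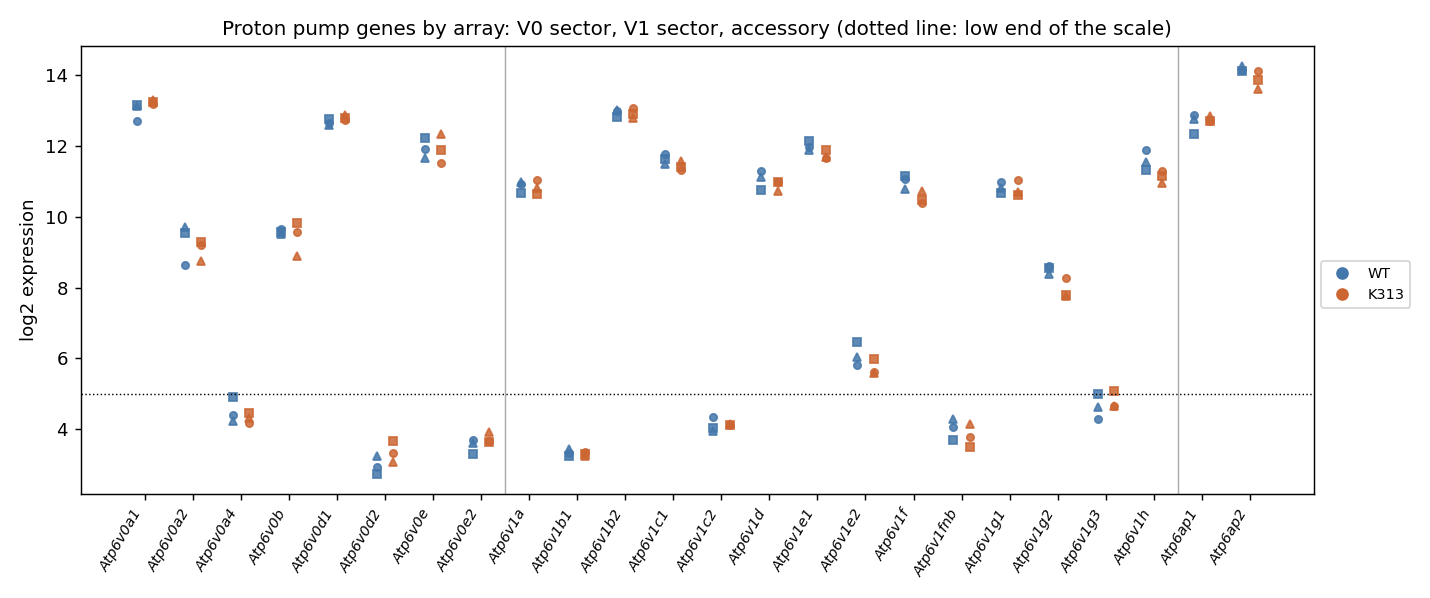
Log2 expression of the 24 pump genes in each array, blue for WT and orange for K313, with circle, square and triangle for replicates 1, 2 and 3; vertical lines part the V0 sector, the V1 sector and the accessory proteins. The 7 genes with both group means under the dotted line at 5 are Atp6v0a4, Atp6v0d2, Atp6v0e2, Atp6v1b1, Atp6v1c2, Atp6v1g3 and Atp6v1fnb; levels of different genes are not comparable on an array.

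Other lysosomal genes, from lists drawn up from general knowledge, changed in both directions. Of all probe sets 7.75% passed in either direction, and 13.9% of those not at the low end in both groups. No list was tested as a set against these shares. Of 20 further hydrolases measured, 2 rose and 2 fell (20% in either direction, median difference 0.013). Ggh, which trims polyglutamate from folates, read 12.78, 12.69 and 12.58 in WT and 11.79, 11.51 and 11.50 in K313, and fell by 1.08 ± 0.16 on the log2 scale (adjusted p = 0.00111). The mannosidase Man2b2 fell by 1.17 ± 0.21 (adjusted p = 0.00389), while the carboxypeptidase Cpq rose by 1.39 ± 0.27 (0.00797). The tartrate-resistant phosphatase Acp5 rose by 0.82 ± 0.21 (0.0345) from the low end in WT, and missed the threshold with quantile normalization and without WT replicate 2, WT replicate 3 or K313 replicate 3.

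Of 30 further membrane proteins, 2 rose and 2 fell (median -0.098). That is 13.3%, near the 13.9% of all probe sets not at the low end in both groups. The exporter of basic amino acids Slc66a1 fell by 0.86 ± 0.18 (adjusted p = 0.0124), and the proton-coupled amino acid transporter Slc36a1 rose by 1.02 ± 0.24 (0.0256). Glmp rose by 0.81 ± 0.18 (0.0164), and the cholesterol carrier Npc2 fell by 0.61 ± 0.16 (0.0399). These 4 calls are not firm, since leaving out single arrays left 0 to 2 rises and 0 to 2 falls. Without K313 replicate 2, 0 fell, and without WT replicate 2 or without K313 replicate 3, 0 rose. Of the 10 genes of mannose 6-phosphate tagging and sorting, 0 passed with limma (unadjusted p under 0.05, 2 higher and 1 lower, against 17.8% of all probe sets in either direction). The cation-dependent receptor M6pr read 15.04 in both groups.

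Of 10 pump assembly factors and partners outside the naming rule, 2 rose and 0 fell (20%, median 0.28). Of all probe sets 7.75% passed, and 13.9% of those not at the low end in both groups. All 10 were of the latter kind. Oxr1, a member of the TLDc family that binds the pump, read 9.16, 9.65 and 9.72 in WT and 11.02, 10.67 and 11.27 in K313, a rise of 1.48 ± 0.21 (adjusted p = 0.000842). Dmxl2, a rabconnectin that helps join V1 to V0, rose by 0.89 ± 0.17 (0.0063). Tcirg1, the a3 subunit of the pump under another name, differed by 0.58 ± 0.17 and did not pass (0.0738), with all K313 arrays above WT; with quantile normalization it passed. Of 18 relatives of TFEB and genes of the mTORC1 kinase complex at the lysosome, 2 rose and 0 fell (11.1%, median -0.005). Tfec, the family member known from myeloid cells, read 12.43, 12.58 and 12.41 in WT and 14.10, 13.66 and 14.03 in K313, a rise of 1.46 ± 0.17 (adjusted p = 0.00019). The X-linked Rag GTPase Rragb rose by 2.50 ± 0.25, from 5.76, 5.28 and 6.18 to 8.07, 8.01 and 8.64 (adjusted p = 5.38e-05). Mitf, the other relative, differed by -0.56 ± 0.19 (adjusted p = 0.123).

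**Figure D4:**
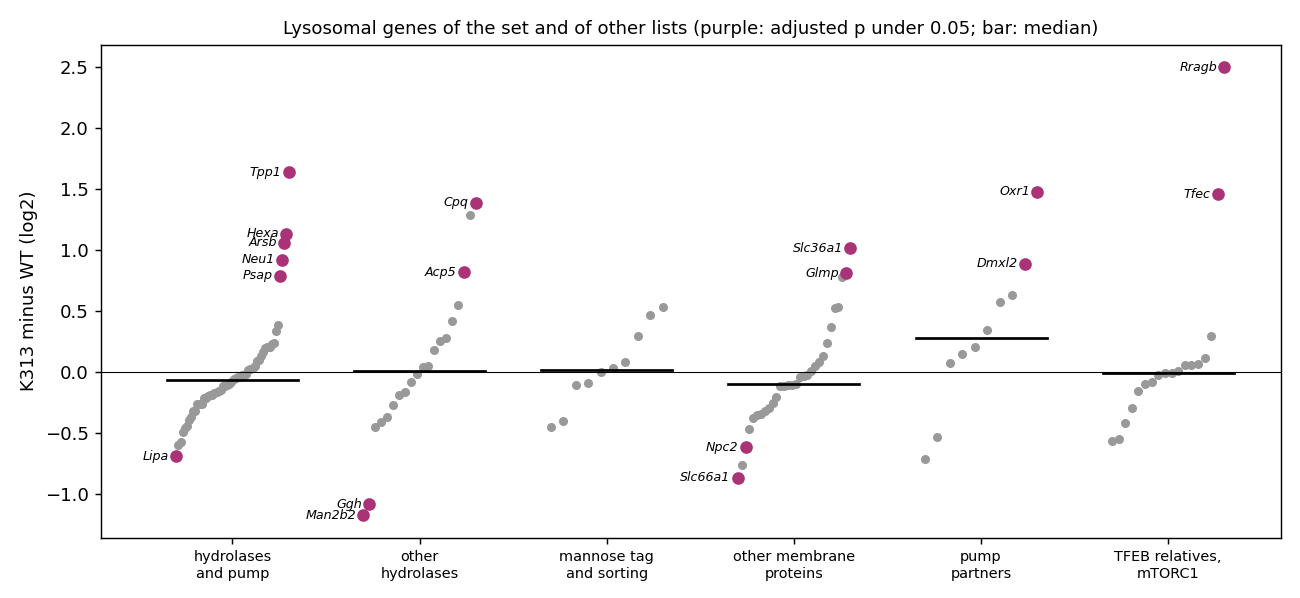
K313 minus WT on the log2 scale for the hydrolases and pump and for 5 further lists of lysosomal genes, each point 1 probe set, purple where the adjusted p was under 0.05 and grey where it was not, with a bar at the median of each list. The 6 medians lie between -0.098 and 0.28, and Rragb, at 2.50, is the highest point.

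Markers of other cell types moved with the groups. The counts below stand beside 3.77% of all probe sets that rose and 3.97% that fell. Of 11 neutrophil precursor markers, 5 rose and 1 fell. Their summed level (the log2 of the sum of unlogged values) was 18.72 to 18.79 in WT and 19.17 to 19.22 in K313. Such sums rest most on the genes that read highest, here Mpo, and levels of different genes are not comparable. Mpo itself differed by 0.003, so the rise of the sum lay in other markers. Among the 5 that rose were Ctsg (15.15 to 16.90), Prtn3 (15.54 to 16.48) and Elane (11.63 to 14.91). The 1 that fell was Csf3r (10.70 to 9.67). The median marker level was 10.07 in WT and 10.02 in K313, with a median difference of 0.36. Of 11 mast cell and basophil markers, 1 rose and 5 fell, and the summed level was 18.31 to 18.43 in WT and 17.64 to 17.89 in K313. The median marker level went the other way, 10.55 in WT and 12.37 in K313, while the median difference was -0.62. The protease Prss34 was the 1 that rose, and Fcer1a, Mcpt4 and Tpsb2 lay at the low end in both groups. Mcpt4 is nonetheless 1 of the 5 counted as lower. The 5 eosinophil markers gave 15.56 to 16.23 in WT and 14.19 to 14.73 in K313, with 3 lower. Mast cells, basophils and eosinophils hold secretory lysosomes with many of these enzymes. The part of these shifts in the lysosomal values was not tested, and fewer cells of a type cannot be told apart from less RNA per cell. Macrophage and osteoclast genes were mostly at the low end: 8 of 10 macrophage markers, C1qa, C1qb, C1qc, Marco and Mrc1 among them, and 5 of 7 osteoclast markers, Ctsk and Calcr among them, had means of at most 5 in both groups. The summed macrophage level was 9.24 to 9.66 in WT and 8.77 to 9.04 in K313 and rested mostly on Adgre1, which fell by 0.78 on the log2 scale (adjusted p = 0.027). The median difference of the 10 macrophage markers was 0.16, with 6 above 0. The summed osteoclast level was 9.72 to 10.46 in WT and 9.32 to 9.39 in K313 and rested mostly on Nfatc1, which fell by 0.80 (adjusted p = 0.0366), while Acp5 rose; the median of the 7 was 0.043. Of 7 lymphocyte markers 3 fell, Cd79b by 3.93, and the summed level was 9.50 to 10.17 in WT and 7.24 to 7.45 in K313. Of the 7, 4 lay at the low end in both groups, and 1 of these, Cd3g (4.75 and 3.26), is among the 3 that fell. Of 5 erythroid and megakaryocyte markers 2 fell, Gp9 by 2.68, with summed levels of 9.80 to 10.03 and 8.16 to 8.51. Of 6 dendritic cell markers 1 fell, Itgax by 0.80, which lay at the low end in both groups (4.97 and 4.17). Their summed levels were 7.67 to 7.68 in WT and 7.46 to 7.58 in K313.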

How the data were processed

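Per the submitters' processing notes, the authors made the deposited log2 values with RMA and the Transcriptome Analysis Console; versions and array design build are not given in the sources used here. RMA compresses folds near the low end; array medians ran from 5.01 to 5.13. Detection calls were not part of the values, so a level of 5 marks the low end; 3 arrays per group limit the precision (median SE of a log2 difference 0.18).

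GEO's annotation of the platform gave 1 symbol for 19572 probe sets, several for 0 and none for 2634. Genes without a named probe set were not analysed here. List symbols off the array were sought in the RefSeq gene table (Pqlc2 became Slc66a1).

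All 22206 probe sets were fitted with limma 3.58.1 (R 4.3.3), group as the only term, eBayes with its default prior, two-sided, Benjamini-Hochberg adjusted, threshold 0.05. Errors of differences are standard errors. The fit was tested on simulated data. No set test was run. All members may be named; values per array are given for members that passed, the 2 smallest p of each role, and Atp6v0d2, Tfeb, Tfe3, Lamp1 and Lamp2. Of the other lysosomal lists, genes that passed are named. Cell type markers are given by counts, summed levels and some medians, with a few named after their values were seen. Man2b1, Galns, Atp6v1h, Tcirg1, Mitf, M6pr and members named for their spread were added after their values were seen, as were the printed promoters and the motifs TTGCNNAA and TCACATG. Members and lists were chosen with earlier results of these data known. The alternatives were quantile normalization, a common median, leaving out the lowest 30% of probe sets, an intensity trend with a robust prior, ordinary variance, array weights, a replicate block, probe sets with 1 symbol only, and each array left out in turn.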

Additional observations from a re-analysis of the deposited data

How the results depend on the processing

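The rise of Hexa and Psap passed in all 14 alternatives, and those of Tpp1, Arsb and Neu1 in 13 of 14, all but ordinary variance (adjusted p = 0.129, 0.112 and 0.134), which left 2 of the 5 rises. Without 1 array, 5 members rose throughout and 0 to 2 fell. Lipa passed in 5 of 14. The falls numbered 0 with quantile normalization, ordinary variance or the replicate block, and 2 with a common median, which added Man2b1. Without K313 replicate 1 the 1 fall was Atp6v1g2. With an intensity trend and robust prior it was Man2b1 in place of Lipa. Pump genes lower in K313 ranged from 0 to 1 over the left-out arrays. The median difference was -0.143 with a common median and -0.117 to -0.041 without 1 array. Same-numbered arrays did not deviate together (r = -0.061, 0.029 and -0.062), so the numbers do not pair the samples. With the replicate block 1546 of all probe sets passed in place of 1720, and with ordinary variance 496. Of the 48 members that did not pass, 20 changed sign in at least 1 alternative, none of them over 0.21 in size in the values reported. With quantile normalization the difference was 0.007 for Atp6v1b2, -0.036 for Atp6v1c2 and -0.021 for Sgsh. With a common median the difference was -0.060 for Atp6v1c2, -0.027 for Mcoln1, -0.053 for Scarb2 and -0.043 for Sgsh. With array weights the difference was 0.000 for Atp6v0e, -0.021 for Sgsh and 0.017 for Tfeb. Without 1 array the difference ran from -0.323 to 0.007 for Atp6v0a4, -0.343 to 0.127 for Atp6v0b, -0.235 to 0.175 for Atp6v0e, -0.007 to 0.348 for Atp6v1g3, -0.087 to 0.003 for Atp6v1b1, -0.172 to 0.038 for Atp6v1g1 and -0.097 to 0.033 for Atp6v1b2. It ran from -0.065 to 0.130 for Atp6v1c2, -0.117 to 0.078 for Atp6v1a, -0.055 to 0.215 for Atp6ap1, -0.028 to 0.357 for Manba, -0.245 to 0.090 for Gusb, -0.300 to 0.150 for Gla and -0.113 to 0.057 for Fuca1. It ran from -0.190 to 0.250 for Ppt1, -0.020 to 0.125 for Mcoln1, -0.117 to 0.198 for Scarb2, -0.310 to 0.245 for Arsa, -0.050 to 0.148 for Sgsh and -0.117 to 0.098 for Tfeb. A common median lowered every difference by the same amount, and the median over all probe sets went from 0.017 to -0.060. The sign changes with that setting follow from this shift. The cause of the other sign changes was not tested.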
